A study of Mus musculus with 9 samples.

Results

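Tnmd, Scx, Mkx, Thbs1, Thbs2, Thbs3, Thbs4, Comp and Tnc, 9 genes of tendon and of the thrombospondin and tenascin matrix proteins, were followed from mouse fibroblasts to induced pluripotent stem (iPS) cells. They are 9 of the 19937 genes with a symbol of their own on an Affymetrix mouse whole-transcript array. The members were chosen by symbol, with earlier results of these data known. Each had exactly 1 array row naming that gene alone, so the rule for choosing among several rows, the highest mean over the 9 arrays, decided nothing. Tnmd and Thbs4 were already known to stand among the largest falls between the first 2 stages, so the set was in part selected on that difference. Their values against fibroblasts are given as a description, with no p-value. They are included in the counts of called members below.

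There were 3 groups of 3 arrays. Fibroblasts at passage 4 were derived from TSKM iPS mice, whose cells hold Tet1, Sox2, Klf4 and c-Myc under doxycycline control (the letters TSKM). TSKM-3D cells were such fibroblasts at passage 4 after 3 days of doxycycline in LIF-containing stem cell medium. Effects of the new medium and of the induced factors cannot be told apart. The iPS line came from the same secondary system and was taken at passages 10 to 15. The strain of every group was OG2-GFP/Rosa26-M2rtTA, a green fluorescent reporter of Oct4 together with the doxycycline-responsive activator in the Rosa26 locus. The labels name neither the tissue the fibroblasts came from nor the number of mice, cultures or clones. Only the iPS cells had feeders, mouse embryonic fibroblasts stopped with mitomycin C, and these were removed by letting them attach for 0.5 h before RNA was taken. Tet1 went against the label of the TSKM-3D arrays as induced cells, at 6.97 against 8.10 on the fibroblast arrays. Sox2 (6.54 against 5.15) and Myc (11.44 against 9.84) went with that label, and Klf4 is not given here.

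Tendon cells lay down parallel collagen fibres. Scleraxis (Scx) and Mohawk (Mkx) are transcription factors of the tendon lineage, and tenomodulin (Tnmd) is a membrane protein of mature tendon cells. Thrombospondins are secreted calcium-binding glycoproteins that bridge collagen, growth factors and cell surface receptors. Thrombospondin-1 and -2 assemble as trimers, whereas thrombospondin-3, thrombospondin-4 and cartilage oligomeric matrix protein (Comp) assemble as pentamers. Tenascin-C (Tnc) is a large matrix protein of developing and healing connective tissue that modulates cell adhesion.

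The 9 genes differed in the stage at which they read below the fibroblast level. Tnmd and Thbs4 stood 28-fold and 22.1-fold lower in TSKM-3D cells than in fibroblasts and were no lower in iPS cells. Tnc fell 2.54-fold at that first step. Thbs1, Thbs2, Thbs3 and Mkx did not pass the criteria at the first step and fell 2.63-fold to 5.1-fold between TSKM-3D and iPS cells. Scx and Comp did not reach a 2-fold difference in any comparison.

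Values are log2 expression values as deposited, 1 array per sample, so a difference of 1 is 2-fold. A gene was called when the Benjamini-Hochberg adjusted p of limma over all 19937 genes was under 0.05 and the difference was at least 2-fold. Between TSKM-3D and fibroblast arrays 3 of the 9 members were called lower and 0 higher, where 7.58% of all genes were called lower and 3.25% higher. Tnmd and Thbs4 are among the 3 and were selected on that difference, so this count was in part fixed beforehand. Between iPS and TSKM-3D arrays 4 were lower and 0 higher, against 8.57% and 6.48% of all genes. Between iPS and fibroblast arrays 7 were lower and 0 higher, against 13.8% and 7.63%. By limma at an unadjusted p under 0.05, 1, 0 and 0 members were higher in these comparisons. Median differences over the 9 members were -0.45, -0.82 and -2.05 in these comparisons, where the median over all genes was 0.05, -0.01 and 0.05. The arrays of the compared groups did not overlap for 8, 6 and 9 members, where the share over all genes was 53.1%, 49.5% and 65%. Since the genes were picked with earlier results known, these counts describe them and are no separate evidence. The comparisons share arrays pairwise and are not independent.

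**Figure D1:**
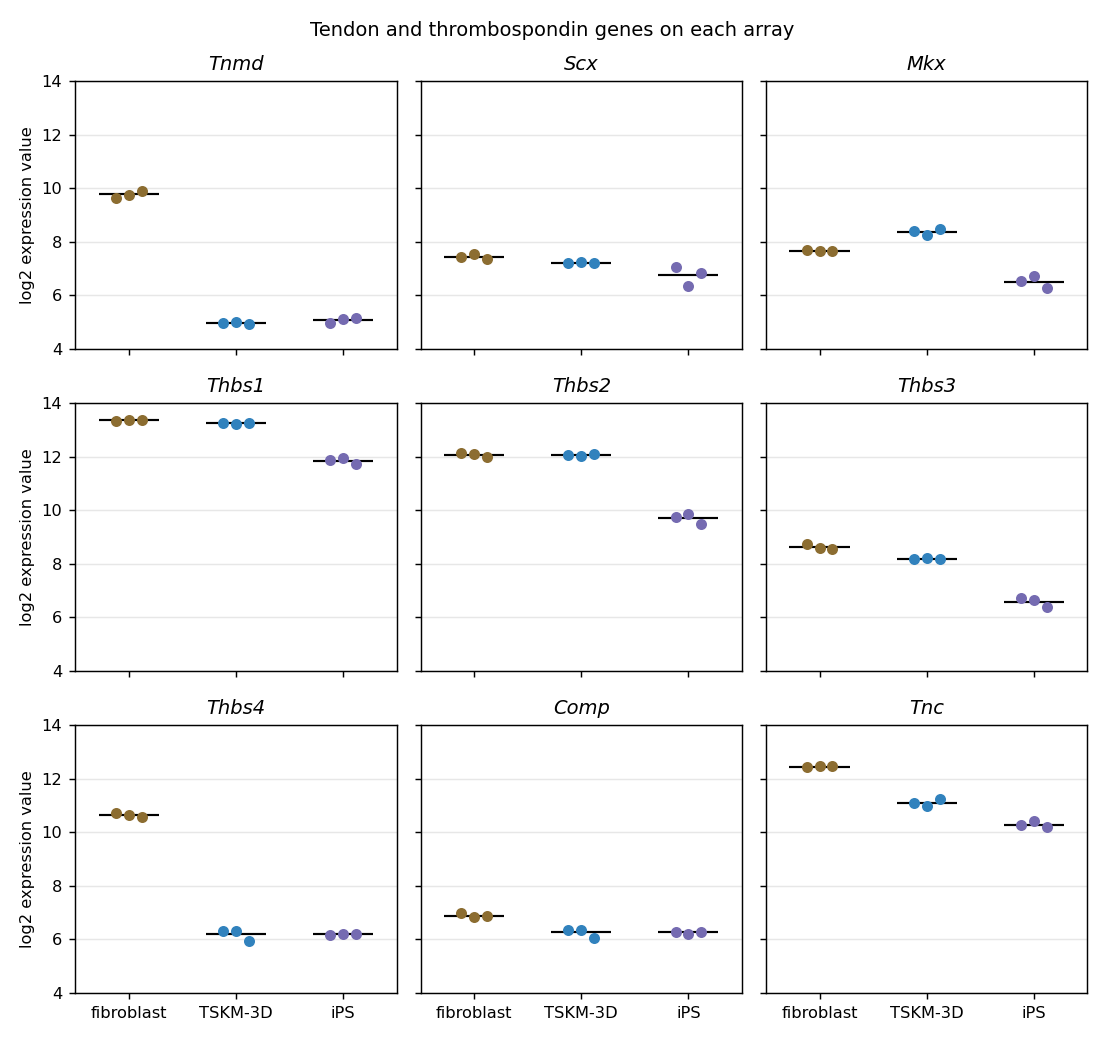
Log2 expression value of each of the 9 genes (vertical axis, same scale in every panel) on the 3 arrays of fibroblasts, TSKM-3D cells and iPS cells; points are arrays and the line is the group mean. Tnmd and Thbs4 are near 10 in fibroblasts only, whereas Thbs1 and Thbs2 stay close to the fibroblast level at TSKM-3D and are lower in iPS cells. Thbs3 is lower by less than 2-fold at TSKM-3D and lower still in iPS cells.

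The third fibroblast array carries a cell type label of induced cells, although its title, source and passage name fibroblasts. It read 9.91 for Tnmd, against 4.92 to 5.01 on the TSKM-3D arrays, and 10.56 for Thbs4, against 5.92 to 6.32. Both genes were selected on that difference. Over all genes, fibroblast arrays, this one included, correlated with each other at 0.9978 to 0.9984 and with TSKM-3D arrays at 0.9501 to 0.9548. The array was kept with the fibroblasts. Placed with the TSKM-3D arrays instead, 0 members were called between that group and the other 2 fibroblast arrays. Of the members 6 had an unadjusted p under 0.05 (limma). Over all 19937 genes 0 were called higher and 0 lower in that fit, and 5359 had an unadjusted p under 0.05. The loss of calls was thus not particular to the members. With that array left out altogether, 3 members were called. Fibroblast markers checked the group names: the mean over 7 measured markers was 11.73 to 11.85 on fibroblast arrays, 10.96 to 11.03 on TSKM-3D arrays and 9.21 to 9.47 on iPS arrays. The mean over 8 pluripotent cell markers was 4.91 to 5, 5.19 to 5.50 and 11.06 to 11.13 on the same arrays. Of the fibroblast markers Pdgfrb (-2.76), Thy1 (-2.41) and Pdgfra (-1.59) were called lower in TSKM-3D cells than in fibroblasts, and for iPS minus fibroblast these were at -3.69, -4.11 and -4.43. The other 4 were not called at TSKM-3D, with Col1a2 at 0.60, Col3a1 at 0.59, Col1a1 at 0.11 and Vim at 0.02. The median difference over the 7 was 0.02 at that step. Of the pluripotent cell markers Pou5f1 alone was called at TSKM-3D, at 7.48 against 5.64 in fibroblasts, and Tdgf1 (7.77), Dppa5a (7.46) and Nanog (6.62) had the largest iPS minus fibroblast differences. Lower quartiles of all array rows lay between 4.54 and 4.76 and medians between 6.01 and 6.23. The table gives no detection measure, so readings below the median may be near background and a fold against them is uncertain.

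Tenomodulin, a type II membrane glycoprotein also known as an inhibitor of blood vessel growth, gave the widest gap of the 9 genes. Tnmd read 9.65, 9.75 and 9.91 on fibroblast arrays, 4.97, 5.01 and 4.92 on TSKM-3D arrays, and 4.96, 5.11 and 5.14 on iPS arrays. The fibroblast arrays lay far above all others, and the TSKM-3D and iPS arrays overlapped. Its difference was -4.81 ± 0.09 (SE) for TSKM-3D minus fibroblast and -4.70 ± 0.09 for iPS minus fibroblast (n = 3 per group). Between iPS and TSKM-3D cells it was 0.11 ± 0.09 (limma, adjusted p = 0.373). Both lower groups read below their arrays' medians and above the lower quartiles.

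Thrombospondin-4, a pentameric thrombospondin found in tendon and muscle, had the profile closest to Tnmd among the other members. Thbs4 read 10.73, 10.65 and 10.56 on fibroblast arrays, 6.31, 6.32 and 5.92 on TSKM-3D arrays, and 6.15, 6.22 and 6.18 on iPS arrays. The TSKM-3D arrays surrounded the iPS arrays, and the fibroblast arrays stood apart from both. The differences were -4.46 ± 0.11 (SE) for TSKM-3D minus fibroblast, 0.00 ± 0.11 for iPS minus TSKM-3D (limma, adjusted p = 0.998) and -4.46 ± 0.11 for iPS minus fibroblast. After subtracting each gene's own mean, the root mean square difference between Tnmd and Thbs4 over the 9 arrays was 0.20. It was the smallest of the 36 pairs of members. Both genes were selected on their fall at TSKM-3D, so this closeness was in part fixed beforehand.

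The same measure was taken over genes other than the members, without clone or predicted names. Closest to Tnmd were Lrrc17 (0.16), Srpx2 (0.17) and Serpina3n (0.23), and closest to Thbs4 were Dpt (0.14), Lrrc17 (0.19) and Srpx2 (0.24). Dpt encodes dermatopontin, a small collagen-binding matrix protein. It averaged 5.43 on TSKM-3D arrays and 5.38 on iPS arrays, against 9.81 on fibroblast arrays. Lrrc17, a secreted leucine-rich repeat protein, averaged 6.81 and 6.74, against 11.41. The comparison covers 9 arrays in 3 groups, so any gene with a high fibroblast level and equal lower levels elsewhere comes close.

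Some markers of another cell type were lower alongside these falls. Of 10 macrophage markers 3 were lower and 0 higher in TSKM-3D cells than in fibroblasts (limma; 1 higher at an unadjusted p under 0.05). Of all genes 7.58% were lower and 3.25% higher at that step. The 3 were Lyz2 at 5.17 against 9.18, Cd53 at 5.31 against 8.22 and C1qb at 5.62 against 7.24. The mean over the 10 markers was 5.48 to 5.55 on TSKM-3D arrays, 5.84 to 5.86 on iPS arrays and 6.53 to 6.61 on fibroblast arrays. Of the 10, Adgre1, Itgam, Ptprc and Fcgr1 read below the array medians in every group. Cd68, a lysosomal protein gene of the same list, went the other way in iPS cells, at 9.59, against 7.67 in TSKM-3D cells and 7.49 in fibroblasts (called in both). It was not called at TSKM-3D. The part of these markers in the falls was not tested. In RNA from whole cultures, fewer cells of a type and less RNA per cell cannot be told apart. Of 8 chondrocyte markers Sox9 alone was called, at 6.44 in TSKM-3D cells against 9.29 in fibroblasts, and of 6 skeletal muscle markers 0 were called (limma; 2 at an unadjusted p under 0.05). Over the 8 chondrocyte markers, 2 were higher and 3, Sox9 among them, lower at TSKM-3D at an unadjusted p under 0.05 (limma). Of the others, Col2a1 averaged 7.65, Col11a2 6.79, Col9a1 6.41, Acan 6.04, Matn3 5.81, Matn1 5.25 and Hapln1 4.845 on fibroblast arrays. Col11a2 was higher by 0.55 at TSKM-3D and was not called.

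The upstream sequences of Tnmd and Thbs4 are shown beside those of Thbs2 and Thbs3, 2 paralogues of Thbs4 that were called lower only in iPS cells. Windows were available for Tnmd, Thbs2, Thbs3, Thbs4 and Tnc, 5 of the 9 members, from RefSeq on GRCm38.p6. Each line holds the 250 bases before the annotated start, 5′ to 3′ on the gene's strand. Capitals mark E-box letters (CANNTG, the kind of site bound by basic helix-loop-helix factors such as scleraxis) and the letters TATAAA, on either strand.
Tnmd, chrX:133850758-133851007, plus strand: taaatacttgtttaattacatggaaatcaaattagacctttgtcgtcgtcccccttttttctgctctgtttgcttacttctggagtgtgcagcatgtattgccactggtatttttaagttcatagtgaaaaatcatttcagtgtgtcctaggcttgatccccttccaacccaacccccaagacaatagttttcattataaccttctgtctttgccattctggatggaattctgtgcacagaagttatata
Thbs4, chr13:92794819-92795068, minus strand: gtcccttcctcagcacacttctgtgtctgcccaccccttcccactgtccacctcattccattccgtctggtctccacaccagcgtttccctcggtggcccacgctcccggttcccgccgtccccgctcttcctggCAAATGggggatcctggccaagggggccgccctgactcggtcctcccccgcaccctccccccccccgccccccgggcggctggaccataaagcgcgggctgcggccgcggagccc
Thbs2, chr17:14694263-14694512, minus strand: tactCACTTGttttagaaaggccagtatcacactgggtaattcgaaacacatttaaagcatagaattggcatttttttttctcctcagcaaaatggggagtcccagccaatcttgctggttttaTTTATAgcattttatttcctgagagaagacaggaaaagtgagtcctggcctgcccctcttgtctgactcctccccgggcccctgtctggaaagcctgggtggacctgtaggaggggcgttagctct
Thbs3, chr3:89214930-89215179, plus strand: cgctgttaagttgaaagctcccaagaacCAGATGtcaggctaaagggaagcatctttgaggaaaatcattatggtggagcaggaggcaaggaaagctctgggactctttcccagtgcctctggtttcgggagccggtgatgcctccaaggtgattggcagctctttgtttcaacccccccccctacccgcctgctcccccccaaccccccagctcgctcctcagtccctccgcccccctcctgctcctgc
Searched on both strands were these E-box and TATA letters, the GC box GGGCGG, and for AP-1 factors the letters TGANTCA. No match overlapped one of another motif in the lines shown. The Tnmd window held none of these 4 motifs. The Thbs4 window held 1 E-box, 115 bases before the start, and 3 GC boxes. The Thbs2 window held 1 E-box and 1 match to TATAAA read on the opposite strand, and the Thbs3 window 1 E-box and 1 GC box. Tnc, also called lower at TSKM-3D, is not printed. Its 2 windows overlap and held 3 and 2 E-boxes, and each held 1 TATAAA and 1 GC box. Of 32841 windows of this length, 66.2% held an E-box, 32.7% a GC box, 12.4% TATAAA and 6.75% the AP-1 letters. The guanine and cytosine share was 38.4% for Tnmd and 70.8% for Thbs4, 46.8% for Thbs2 and 58.8% for Thbs3. Tnmd and Thbs4, both selected on their fall at TSKM-3D, thus had unlike windows, and a letter match is a description, not a shown binding site.

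The lineage transcription factors did not follow tenomodulin. Scx read 7.41, 7.55 and 7.34 on fibroblast arrays, 7.22, 7.25 and 7.19 on TSKM-3D arrays, and 7.05, 6.33 and 6.83 on iPS arrays. The groups did not overlap, but the iPS arrays spread widely (SD 0.37), with the second one low. TSKM-3D minus fibroblast was -0.21 ± 0.15 (SE; limma, adjusted p = 0.271). iPS minus TSKM-3D was -0.48 ± 0.15 (adjusted p = 0.0186) and iPS minus fibroblast -0.70 ± 0.15 (adjusted p = 0.00163), both under 2-fold. Without the second iPS array these were -0.28 and -0.50.

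Mkx, a homeobox gene needed for tendon collagen fibre growth in mice, was highest at TSKM-3D. It read 7.67, 7.65 and 7.65 on fibroblast arrays, 8.41, 8.24 and 8.47 on TSKM-3D arrays, and 6.51, 6.72 and 6.26 on iPS arrays. No array of one group lay inside the range of another. TSKM-3D minus fibroblast was 0.72 ± 0.11 (SE; limma, adjusted p = 0.000215), or 1.64-fold, which is under the 2-fold criterion. In iPS cells Mkx fell by 1.88 below TSKM-3D (SE 0.11; limma, adjusted p = 5.38e-08), and iPS minus fibroblast was -1.16 ± 0.11 (adjusted p = 2.26e-06). The fall below fibroblasts was not called when tested against 2-fold itself (adjusted p = 0.485). The genes with the most similar profiles were Igf2r, Pter and Lrrfip1, at root mean square differences of 0.08 to 0.10. Igf2r, a receptor that clears insulin-like growth factor 2, averaged 10.38, 11.08 and 9.23 from fibroblasts to iPS cells.

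Of the trimeric thrombospondins, Thbs1, known as an activator of latent TGF-beta and an inhibitor of blood vessel growth, read close to the top of the scale. Its values were 13.35, 13.36 and 13.38 on fibroblast arrays, 13.27, 13.20 and 13.27 on TSKM-3D arrays, and 11.87, 11.96 and 11.73 on iPS arrays. The highest reading of any row was 13.88 to 14.02 on these arrays. TSKM-3D minus fibroblast was -0.11 ± 0.08 (SE; limma, adjusted p = 0.266). In iPS cells Thbs1 fell by 1.39 below TSKM-3D (SE 0.08; adjusted p = 3.53e-08) and iPS minus fibroblast was -1.51 ± 0.08 (adjusted p = 1.07e-08). The nearest profile was that of Tmem80, with a root mean square difference of 0.03, followed by Mbd2 and Lpgat1 at 0.06 each.

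Thbs2, which encodes a relative of thrombospondin-1 that limits blood vessel growth and matrix protease levels, showed the largest step to iPS cells among the 9 members. It read 12.13, 12.10 and 11.995 on fibroblast arrays, 12.04, 12.02 and 12.11 on TSKM-3D arrays, and 9.76, 9.87 and 9.48 on iPS arrays. Fibroblast and TSKM-3D arrays overlapped, with a difference of -0.02 ± 0.10 for TSKM-3D minus fibroblast (SE; limma, adjusted p = 0.904). In iPS cells it fell 5.1-fold below TSKM-3D (-2.35 ± 0.10; adjusted p = 3.79e-09) and 5.17-fold below fibroblasts (-2.37 ± 0.10; adjusted p = 1.98e-09). Hsd17b7, Il1rap and Lmo4 had the closest profiles, at 0.07 to 0.10.

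Among the pentameric thrombospondins, Thbs3 alone was called between iPS and TSKM-3D cells. Thbs3, a gene of the developing skeleton, read 8.75, 8.59 and 8.55 on fibroblast arrays, 8.16, 8.20 and 8.16 on TSKM-3D arrays, and 6.73, 6.63 and 6.38 on iPS arrays. All 3 groups were separate. TSKM-3D minus fibroblast was -0.45 ± 0.10 (SE; limma, adjusted p = 0.00246), short of 2-fold. Thbs3 fell by 1.60 in iPS cells below TSKM-3D (SE 0.10; adjusted p = 7.32e-08) and iPS minus fibroblast was -2.05 ± 0.10 (adjusted p = 5.32e-09). Its nearest profiles, at 0.08 each, were those of Fli1, Med14 and Lgals8. Thbs4, described above with Tnmd, averaged 6.18 both at TSKM-3D and in iPS cells.

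Comp, the cartilage and tendon protein that organises collagen fibrils, read below 7 on every array. Its values were 6.97, 6.84 and 6.86 on fibroblast arrays, 6.36, 6.36 and 6.05 on TSKM-3D arrays, and 6.29, 6.21 and 6.28 on iPS arrays. Fibroblast arrays were above all others, and TSKM-3D and iPS arrays overlapped. The differences of -0.63 ± 0.10 for TSKM-3D minus fibroblast (SE; limma, adjusted p = 0.000172) and -0.63 ± 0.10 for iPS minus fibroblast (adjusted p = 0.000118) were under 2-fold. iPS minus TSKM-3D was 0.00 ± 0.10 (adjusted p = 0.985). Dpm3, Grin2d and Lgi3 had the closest profiles, at 0.05 to 0.06.

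Tenascin-C was called lower at TSKM-3D, with a further difference of under 2-fold in iPS cells. Tnc read 12.44, 12.46 and 12.46 on fibroblast arrays, 11.10, 10.97 and 11.26 on TSKM-3D arrays, and 10.27, 10.41 and 10.18 on iPS arrays. The groups were separate at each stage. Tnc fell by 1.35 in TSKM-3D cells (SE 0.09; limma, adjusted p = 2.84e-07), or 2.54-fold below fibroblasts. iPS minus TSKM-3D was -0.82 ± 0.09 (adjusted p = 1.25e-05), under 2-fold, and iPS minus fibroblast -2.17 ± 0.09 (adjusted p = 1.98e-09). The nearest profiles were those of Dnlz, Ebf2 and Prrg1, at 0.07 to 0.09. Ebf2, a transcription factor of mesenchymal cells, averaged 7.27, 5.99 and 5.15 from fibroblasts to iPS cells.

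**Figure D2:**
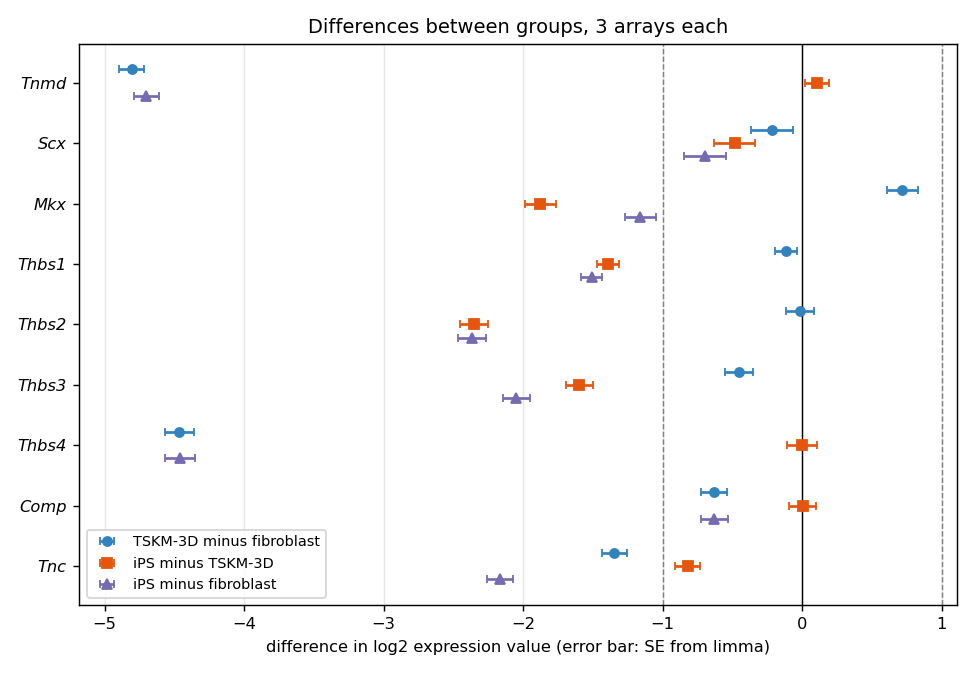
Difference in log2 expression value between groups for each of the 9 genes, with the SE from limma (n = 3 arrays per group); dashed lines mark 2-fold. Tnmd and Thbs4 lie beyond -4 in both comparisons with fibroblasts and near 0 for iPS minus TSKM-3D, while Thbs2 lies near 0 for TSKM-3D minus fibroblast and beyond -2 in the other comparisons.

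Each gene can also be placed by the position of the TSKM-3D mean on the way from the fibroblast mean (0%) to the iPS mean (100%). Tnmd stood at 102% ± 1.88 (SE), Thbs4 at 100% ± 2.4 and Comp at 100% ± 15.1. Tnc stood at 62.1% ± 3.69 and Scx at 30.7% ± 18.9. Thbs3 was at 22.1% ± 4.34, Thbs1 at 7.58% ± 5 and Thbs2 at 0.74% ± 4.21. Mkx stood outside the range, at -61.7% ± 13.5. Tnmd, Thbs4 and Comp cannot be ordered among themselves at these errors, nor can Thbs1 and Thbs2. In TSKM-3D and iPS cells Tnmd read below the array medians, and Thbs4, at 6.18 in both, lay within the range of those medians (6.01 to 6.23). A background floor shared by both groups would alone give a position near 100%, and the SE does not cover that limit. The wide error of Comp and Scx goes with their small total change, and that of Scx also with its wide spread on iPS arrays (SD 0.37).

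**Figure D3:**
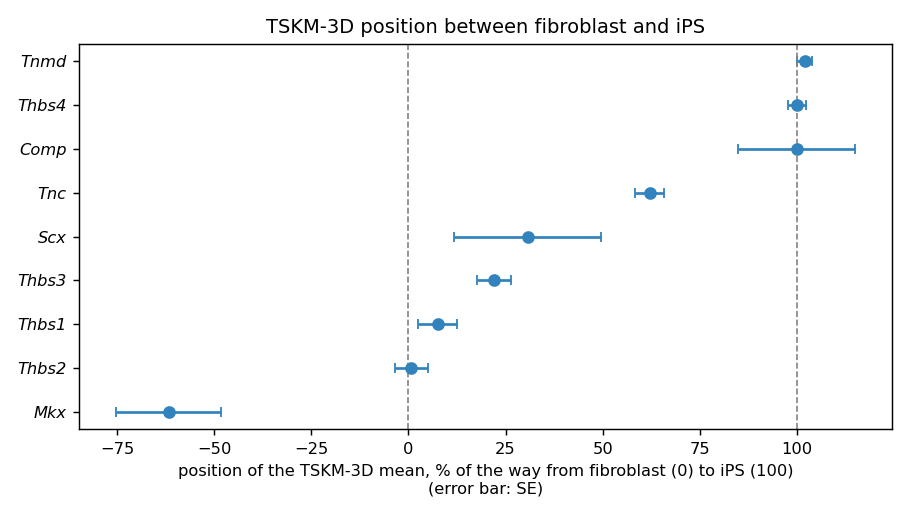
Position of the TSKM-3D mean between the fibroblast mean (0%) and the iPS mean (100%) for each gene, with the SE, on the log2 scale. Tnmd, Thbs4 and Comp lie at the iPS end, Tnc at 62.1%, Thbs1 and Thbs2 at the fibroblast end, and Mkx on the other side of the fibroblast mean.

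Of 20 other tendon matrix genes 8 were called lower and 0 higher in TSKM-3D cells than in fibroblasts (limma; 5 higher at an unadjusted p under 0.05), with a median difference of -0.39. The 8 were Fmod, Bgn, Dcn, Lum, Aspn, Prelp, Cilp and Prg4, which encode proteoglycans and other non-collagen matrix proteins. None of the 8 collagen genes in the list was among them. In iPS cells 13 were lower and 0 higher than in fibroblasts (0 higher at an unadjusted p under 0.05 too), and 7 lower and 1 higher than at TSKM-3D. Shares over all genes are those given above. The largest falls at TSKM-3D were in the small leucine-rich proteoglycan genes Lum (-5.51), Aspn (-5.34) and Dcn (-4.44), and Fmod (-4.29) followed. Dcn was at 8.53 in iPS cells, against 7.07 at TSKM-3D, a rise of 1.45 ± 0.10 (SE; limma, adjusted p = 2.47e-07). The iPS group alone was grown on feeder fibroblasts, and the part of remaining feeder RNA in this rise was not tested. Differences of the 8 collagen genes at TSKM-3D, singled out after their values were seen, ran from -0.74 for Col14a1 and -0.65 for Col12a1 to 0.59 for Col3a1, 0.60 for Col1a2 and 0.70 for Col5a2. Col3a1 stood at 11.05 in TSKM-3D cells, against 10.46 in fibroblasts, and 8.75 in iPS cells (iPS minus TSKM-3D -2.30, called). Col12a1 stood at 10.91 in TSKM-3D cells, against 11.55 in fibroblasts, and at 9.50 in iPS cells.

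Of 17 measured regulators of tendon formation, 2 were lower and 1 higher in TSKM-3D than in fibroblasts, where 7.58% and 3.25% of all genes were. At that step the list does not stand apart from that background. In iPS cells 5 were lower and 1 higher than in fibroblasts, against 13.8% and 7.63% of all genes. Between iPS and TSKM-3D cells 6 were lower and 1 higher, against 8.57% and 6.48%. Sox9, a factor of the shared tendon and cartilage progenitor, fell by 2.84 at TSKM-3D, and Smad3, a TGF-beta signal transducer, changed by -1.23. Egr2, a zinc finger factor that promotes tendon collagen genes, rose by 2.41 at TSKM-3D and fell by 2.33 between TSKM-3D and iPS cells. For iPS minus fibroblast the ligand gene Tgfb3 was at -4.03 and the receptor gene Tgfbr2 at -3.02 on the log2 scale, both called, whereas the receptor gene Tgfbr1 was at -0.63 and not called. Fgf4, better known as a growth factor gene of pluripotent cells, rose by 3.52.

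Thrombospondin receptors changed in both directions. Of 12 receptor genes 3 were lower and 1 higher in TSKM-3D than in fibroblasts (median -0.50), against 7.58% and 3.25% of all genes. In iPS cells 6 were lower and 1 higher than in fibroblasts (median -1.20), against 13.8% and 7.63%. The 1 higher gene in each comparison does not set the list apart from all genes. Cd47, an immunoglobulin-family receptor of thrombospondin-1, stood at 8.17 in iPS cells, against 9.89 in TSKM-3D cells and 10.34 in fibroblasts. Cd36, a scavenger receptor, read 3.79 in TSKM-3D cells and 3.75 in iPS cells, against 3.88 in fibroblasts, below the lower quartile of the arrays in each group. Lrp1, an endocytic receptor, fell by 1.46 at TSKM-3D, and its iPS minus fibroblast difference was -2.34. Cacna2d1, a calcium channel subunit that binds thrombospondins, fell by 1.38 at TSKM-3D, with an iPS minus fibroblast difference of -3.80. Itga4, an integrin subunit, rose by 2.78 at TSKM-3D, while Itga5 fell by 1.84.

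**Figure D4:**
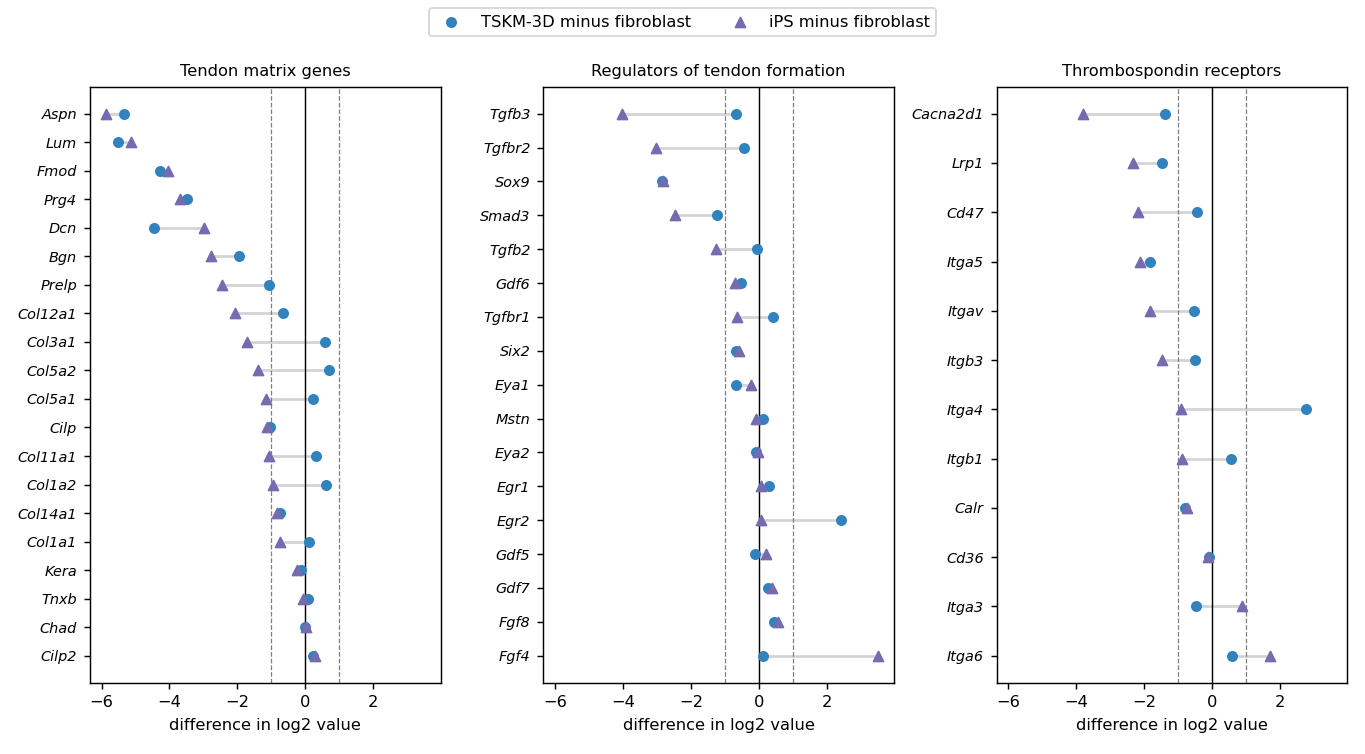
Difference in log2 value from fibroblasts for TSKM-3D (circles) and iPS cells (triangles) in tendon matrix genes, regulators of tendon formation and thrombospondin receptors; dashed lines mark 2-fold. Lum, Aspn, Fmod and Prg4 are at about the same low level in both groups, whereas Col3a1 and Col5a2 lie above 0 for TSKM-3D and beyond -1 for iPS cells, and Col12a1 and Col14a1 lie below 0 for both.

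Part of the thrombospondin and tenascin signal was still bright on iPS arrays, at 11.85 ± 0.12 for Thbs1, 9.71 ± 0.20 for Thbs2 and 10.29 ± 0.11 for Tnc (SD, n = 3). On the same arrays Col1a1 averaged 11.47 and the smooth muscle and myofibroblast gene Acta2 11.80. The feeder cells are themselves fibroblasts, and the iPS group alone was grown on them. Of the 7 fibroblast markers 5 were lower and 0 higher in iPS cells than in fibroblasts (limma; 0 higher at an unadjusted p under 0.05). The shares over all genes were 13.8% lower and 7.63% higher. The part of remaining feeder RNA in these levels was not tested.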

How the data were processed

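RNA of 9 cell samples was labelled for whole-transcript arrays with the WT Terminal Labeling Kit, per the labels' protocols. Deposited were log2 expression values of 34760 array rows, 1 column per array. How the authors normalized them is not given in the sources used here, and they were used as deposited. Gene names came from the probe annotation of the platform: 21640 carried 1 symbol, 1321 several and 11799 were not listed, which leaves 19937 genes, each at its row of highest mean. Groups came from the sample titles. Whether a group's 3 arrays are separate cultures is not said in the labels, and the p-values then reflect only array-to-array spread, which may be technical. The number of arrays limits the precision. The 3 groups were fitted together in limma 3.58.1 (R 4.3.3; lmFit, contrasts, eBayes) with Benjamini-Hochberg adjustment over all genes. The test was checked on simulated data. Members and gene lists were chosen with earlier results of these data known. Named are the members and the 3 nearest profiles of each (by root mean square difference, without other members and without clone or predicted names). From each list the 3 called genes of largest difference from fibroblasts at each stage are also named. Other genes of a list were named after their values were seen. Among the listed genes, Fbn1 and Gp1bb had no row of their own and were not used, and 1 item is not reported here. Alternatives changed the row choice, the scaling, the variance model, the filter, the array groups and the arrays used. Exact ties occurred in 1 group each for Mkx and Thbs3, which may lower their p-values.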

Additional observations from a re-analysis of the deposited data

How the results depend on the processing

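Numbers of members called lower (3, 4 and 7 for TSKM-3D against fibroblast, iPS against TSKM-3D and iPS against fibroblast) ranged from 3 to 3, 4 to 4 and 7 to 7 when each array was left out in turn, and 0 members were called higher. The labels give the groups the same replicate numbers, but deviations of same-numbered arrays correlated at -0.10 to 0.06, and 1 of 9 arrays was closest to its own number in both other groups, so the numbers were not taken as pairs. With replicate number as a block, 3, 4 and 7 members and 648 higher and 1511 lower genes at TSKM-3D were called, as without it. Placing the third fibroblast array with the TSKM-3D arrays left 0 members called at TSKM-3D, with Tnmd at -3.50, Thbs4 at -3.41 and Tnc at -1.01 (limma, adjusted p = 0.165 for Tnc). It also left 0 genes called in either direction at that step among all genes, and so in each of the lists. In iPS against TSKM-3D it left 0 tendon matrix genes higher. Tnc was then called between iPS cells and TSKM-3D, at -1.16. This placement mixes arrays with unlike values in 1 group. Testing against 2-fold itself lowered the all-gene counts at TSKM-3D to 343 higher and 797 lower, those for iPS against TSKM-3D to 803 higher and 1128 lower, and the count of higher genes for iPS against fibroblast to 997 (1522 otherwise). It called 1 tendon regulator, 1 tenascin list gene and 1 matrix partner lower at TSKM-3D, and 3 regulators lower and 0 thrombospondin receptors higher in iPS than in TSKM-3D. Of those receptors 1 was higher with array medians set equal, and 2 were higher in iPS than in fibroblasts without the first iPS array. Quantile normalization called 1 matrix partner higher in iPS than in fibroblasts. Signs turned only for differences near 0. Thbs2 at TSKM-3D was 0.021 after quantile normalization and -0.058 to 0.011 with single arrays left out. Tnmd in iPS against TSKM-3D was -0.01 with medians set equal and -1.13 with the third fibroblast array moved. Thbs4 there was -0.12 after quantile normalization, with medians set equal and with array weights, -1.09 with that array moved, and -0.13 to 0.067 with arrays left out. Comp there was -0.11 after quantile normalization and with medians set equal, -0.10 with array weights, -0.15 with the array moved, and -0.10 to 0.056 with arrays left out. The array weights did not fully converge. Setting medians equal moved the median gene in iPS against fibroblast to -0.12, from 0.05. Of the 513 differences of single members under an alternative, 490 kept their direction and their side of the threshold.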

Other observations

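Genes of tenascin-C receptors and relatives were lower rather than higher where they were called. Of 17, 4 were lower and 0 higher in TSKM-3D cells than in fibroblasts, against 7.58% and 3.25% of all genes. In iPS cells 8 were lower and 0 higher than in fibroblasts, against 13.8% and 7.63%. At an unadjusted p under 0.05 (limma), 2 and 1 were higher in these comparisons. Sdc4, not called, was higher than in fibroblasts by 0.52 at TSKM-3D and by 0.65 in iPS cells. Itgb1, not called, was higher by 0.54 at TSKM-3D. Itga8, an integrin subunit that binds tenascin-C, changed by -1.30 at TSKM-3D, Ptprz1, a receptor phosphatase, by -1.12 and the innate immune receptor gene Tlr4 by -1.06. Egfr, the epidermal growth factor receptor gene, stood at 6.95 in iPS cells, against 8.84 in TSKM-3D cells and 9.74 in fibroblasts. Anxa2, an annexin gene, stood at 9.99 in iPS cells, against 12.14 in TSKM-3D cells and 12.17 in fibroblasts.

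Of 16 matrix partners of thrombospondins and Comp, 2 were lower and 1 higher in TSKM-3D cells than in fibroblasts. In iPS cells 7 were lower and 0 higher than in fibroblasts (limma; 4 higher at an unadjusted p under 0.05). For these and the markers below, the shares over all genes were 7.58% lower and 3.25% higher at TSKM-3D. For iPS against fibroblast they were 13.8% and 7.63%. Matn2, an adaptor protein of matrix networks, rose by 1.79 at TSKM-3D and stood at 6.05 in iPS cells, against 10.80 at TSKM-3D. Mmp9 and Mmp2, gelatinase genes, changed by -2.08 and -1.14 at TSKM-3D. For iPS minus fibroblast, Mmp2 was at -3.43, the urokinase gene Plau at -3.02 and the protease gene Adamts1 at -2.99 on the log2 scale. Of 6 smooth muscle markers 1, Cnn1, was lower at TSKM-3D and 4 lower and 1 higher in iPS cells than in fibroblasts, with Cnn1 at -3.28, Tagln at -1.74 and Acta2 at -1.26 for iPS minus fibroblast. Of 6 endothelial markers 0 were called at TSKM-3D (limma; 2 at an unadjusted p under 0.05) and Pecam1 was higher in iPS cells (8.84 against 5.04 in fibroblasts). Of 4 platelet and megakaryocyte markers Ppbp was lower in both comparisons with fibroblasts, and Pf4, Gp9 and Itga2b were not called.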
